A study of Macaca mulatta with 136 samples.

Results

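Heparan sulfate is a sulfated sugar chain that is carried by core proteins at the cell surface and in the matrix, and the genes described here write, edit or carry it. The group was named by symbol: the sulfatases SULF1 and SULF2, the sulfotransferases HS6ST1, HS6ST2, NDST1 and HS3ST1, and the glypicans GPC1, GPC3, GPC4 and GPC6. Of these 10 symbols, 9 had an entry among the 19422 gene identifiers of the series and each of the 9 had a single entry, while GPC1 was not analysed here. The symbols were chosen by their roles with expression differences in these data known. Which comparison weighed in the choice is not recorded. Differences between fovea/macula and periphery, the main comparison of the study, are given as a description with no p beside counts of calls. The other comparisons may have weighed in the choice too, so their p-values are those of genes chosen with results known.

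Heparan sulfate chains are built in the Golgi, where NDST enzymes replace acetyl groups with sulfate along the chain and later enzymes add sulfate at other positions, HS6ST enzymes at the 6-O position and HS3ST enzymes at the rarer 3-O position. SULF1 and SULF2 act after secretion and remove 6-O-sulfate from finished chains. Glypicans hold such chains at the cell surface through a lipid anchor. The sulfation pattern sets which growth factors, morphogens and other proteins bind the chain, and heparan sulfate of Bruch's membrane, beneath the pigment epithelium, is known as a ligand of complement factor H.

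RNA came from 2 mm punches of postmortem eyes of 2 adult rhesus macaques, RM03 and RM04, with no treatment named, and the right (OD) and left (OS) eye of each gave 4 eyes. Replicates 1 and 2 are the right and left eye of RM03, and replicates 3 and 4 those of RM04. The punches, from fovea/macula, perimacula, a nasal site and periphery, were each separated into neural retina and RPE/choroid, which holds the retinal pigment epithelium (RPE) together with the vessels, pigment cells and connective tissue of the choroid. The 4 locations of 2 tissues in 4 eyes gave 32 libraries, with 42448903 to 78574055 estimated counts each. Libraries of the periphery were sequenced on a flow cell of their own, and location and flow cell cannot be told apart there, whereas the fovea/macula, perimacula and nasal libraries shared 2 flow cells. The eyes of an animal are not independent animals. With the animal as a covariate, p-values within a tissue measure the spread of the eyes that is left after the mean difference between the 2 animals. Comparisons of the tissues and interactions pooled all 32 libraries, with an animal term shared by both tissues. An animal difference that is unlike in the 2 tissues stays in that pooled spread. The main fits treated the libraries of an eye as independent.

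The labelled tissues were checked with marker lists. Summed over 9 rod markers, retina libraries held 4013 to 28042 CPM, the TMM-normalized count per library size, and RPE/choroid libraries 50.1 to 924. Summed over 7 RPE markers, RPE/choroid libraries held 10441 to 25808 CPM and retina libraries 237 to 1356. In retina the RPE markers rose outward, from a median of 1.39% of their RPE/choroid level at the fovea/macula to 6.17% in the periphery. In these bulk punches, fewer cells of a type and less RNA per cell cannot be told apart.

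Along the retina, the sulfotransferases HS6ST2, HS3ST1 and HS6ST1 had their highest mean at the fovea/macula, while NDST1, SULF1, GPC4 and GPC6 had their lowest there. The HS6ST1 eyes overlapped those of every other location. Compared with the nasal site, on shared flow cells, 7 of the 9 genes were called in retina at an adjusted p under 0.05, 2 of them higher at the fovea/macula (25.1% of all tested genes) and 5 lower (27.2%), where 52.2% of all 15486 tested genes were called. Compared with the perimacula, 4 of the 9 were called, 2 higher (19% of all tested genes) and 2 lower (16.2%), against 35.2% in either direction. In RPE/choroid, SULF1, HS3ST1 and HS6ST1 had their highest mean levels at the fovea/macula, and GPC3, GPC4 and GPC6 their lowest. For all of these but SULF1, the fovea/macula eyes overlapped those of the location next in level. In RPE/choroid, none of the 9 was called against the perimacula, where 0.0447% of all tested genes were called. None was called against the nasal site, where 0.361% were. At an unadjusted p under 0.05, edgeR found 3 of the 9 against the perimacula (10.7% of all tested genes) and 4 against the nasal site (15.5%). DESeq2 called 2 of the 9 in each, beside 2% and 3.3% of all genes it tested. Between fovea/macula and periphery, 5 genes were called in retina (67% of all tested genes), 2 higher (31%) and 3 lower (36%) at the fovea/macula. In RPE/choroid 4 were called (44.1%), 3 higher (21.2%) and 1 lower (22.9%), and nothing is read from these counts. The comparisons share the fovea/macula libraries and are not independent of each other.

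**Figure D1:**
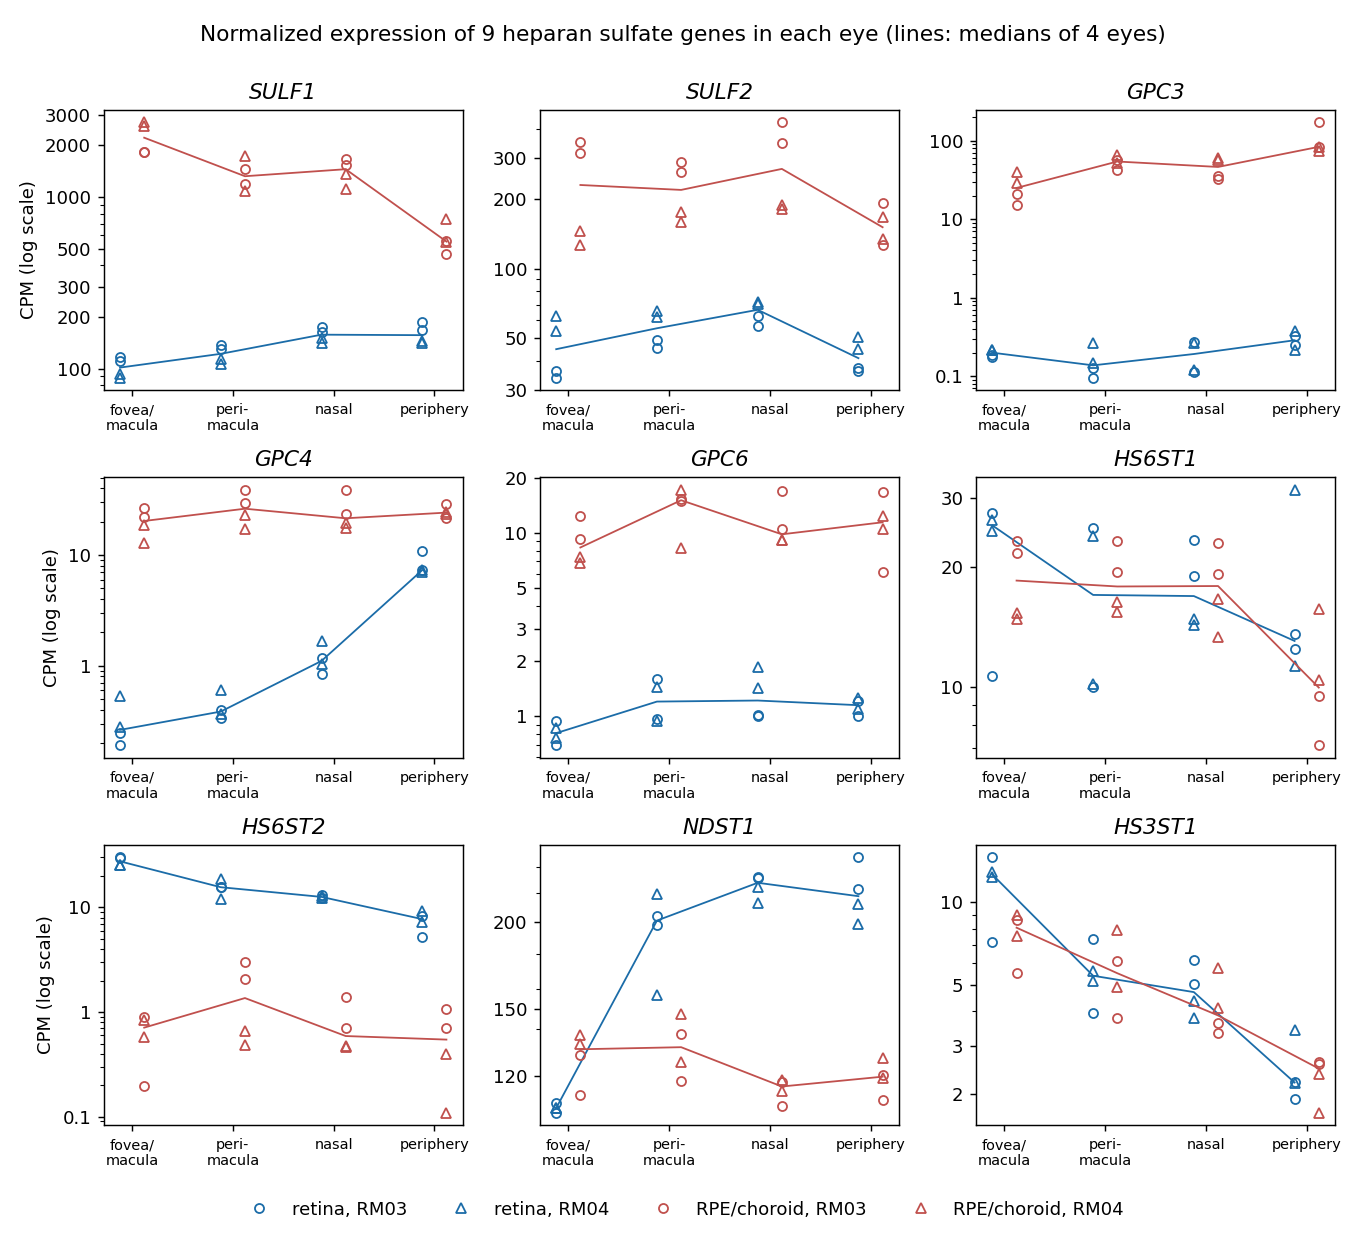
TMM-normalized CPM of each of the 9 genes (log axis) in the 4 eyes at each of 4 locations, with retina in blue, RPE/choroid in red, circles for RM03, triangles for RM04 and lines through the medians. SULF1 in RPE/choroid fell outward and GPC3 there rose, while in retina GPC4 and NDST1 were lowest and HS6ST2 and HS3ST1 highest at the fovea/macula.

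SULF1 (ENSMMUG00000023274), a sulfatase that strips 6-O-sulfate from heparan sulfate outside the cell, was abundant in RPE/choroid. At the fovea/macula the right and left eye of RM03 had 1839.5 and 1842 CPM and those of RM04 had 2596 and 2725 CPM. In the perimacula, the eyes ranged from 1078 to 1741 CPM and at the nasal site from 1122 to 1676 CPM. All 4 eyes of the fovea/macula lay above all eyes of the other locations, and the perimacula and nasal eyes overlapped. In the periphery the RM03 eyes had 555 and 466 CPM and the RM04 eyes 546 and 740.2 CPM, below every eye of the other 3 locations. The mean fell from 2251 ± 476 CPM (SD, n = 4 eyes) at the fovea/macula to 1366 ± 294 in the perimacula, 1426.5 ± 239 at the nasal site and 577 ± 116 in the periphery.

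The log2 difference in SULF1 between fovea/macula and periphery of RPE/choroid was 1.94 (standard error 0.17), or 3.85-fold. Against the perimacula it was 0.70 (standard error 0.17, higher in 4 of 4 eyes) and against the nasal site 0.64 (standard error 0.19, higher in 4 of 4 eyes). Neither was called with edgeR (adjusted p = 0.172 and 0.151), although the eyes of the groups did not overlap, and both were called with DESeq2 (adjusted p = 0.00443 and 0.0311). Smooth muscle, endothelial and ganglion cell markers fell outward as SULF1 did in this tissue, and not all other markers did. Summed over 7 ganglion cell markers, the eyes held 283 to 379 CPM at the fovea/macula and 123 to 196 in the periphery. Between these locations the cone median fell from 322 to 150 CPM and the rod median rose from 96.2 to 452, both with overlapping eyes. From fovea/macula to periphery, the median sums of fibroblast (2877 to 8378 CPM) and Schwann cell markers (285 to 2717) rose. That of RPE markers went from 17482 to 20846 CPM with no shared direction among the eyes. The RPE sums were 13055 to 19554 CPM at the fovea/macula and 11812.5 to 25808 in the periphery. They were lower in the periphery in the left eye of RM03 and the right eye of RM04. The medians of melanocyte (699 to 652) and macrophage markers (974 to 844) were lower in the periphery, with overlapping eyes. The sum of the 4 analysed smooth muscle markers, of 5 listed, was 4449 to 7354 CPM at the fovea/macula, 2859 to 3795 in the perimacula, 2299 to 4447 at the nasal site and 233 to 1304 in the periphery. Summed over 5 endothelial markers, the range was 1495 to 2240.02 CPM at the fovea/macula, 1179 to 1927 in the perimacula, 1523 to 1807 in nasal punches and 914 to 1193 in the periphery. None of these markers was at 0 in all eyes of a group, and their part in the result was not tested.

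In retina, SULF1 ran the opposite way at a lower level. It had 117 and 110.4 CPM in the RM03 eyes and 88.5 and 92.5 CPM in the RM04 eyes at the fovea/macula. The 4 nasal eyes held 142 to 175 CPM and the 4 peripheral eyes 142 to 188 CPM, above every fovea/macula eye. The log2 difference was -0.60 (standard error 0.05, adjusted p = 4.41e-07, edgeR) between the fovea/macula and the nasal site and -0.60 (standard error 0.06) between fovea/macula and periphery. In the perimacula, with 106 to 136 CPM, the eyes overlapped those of the fovea/macula, but every eye was higher than the fovea/macula of the same eye. The difference of -0.20 (standard error 0.06) was called at an adjusted p of 0.0278, and when the eye was used as the block the adjusted p was 0.0529. It was also not called without replicate 1, 3 or 4 (adjusted p = 0.0711, 0.0638 and 0.0559), nor without the monkey covariate (adjusted p = 0.3).

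SULF2 (ENSMMUG00000012029), the paralog of SULF1 with the same activity, differed between the animals. In RPE/choroid at the fovea/macula, the RM03 eyes had 313 and 349 CPM and the RM04 eyes 126 and 144 CPM. RM03 lay above RM04 in RPE/choroid at 3 of 4 locations, with overlap in the periphery, and below RM04 in retina at all 4. With 2 animals this difference is a description. Summed over 4 macrophage markers, RPE/choroid also held more in RM03, with 1298 and 1233 CPM against 591 and 716 in RM04 at the fovea/macula, 1065 and 1235 against 698 and 673 in the perimacula and 1257 and 1523 against 791 and 808 in nasal punches. In the periphery the sums were 969 and 878 against 709 and 809.8 CPM. None of these markers was at 0 in all eyes, and their part in the SULF2 difference was not tested. The location means in RPE/choroid were 233 ± 114 CPM (SD, n = 4 eyes) at the fovea/macula, 221 ± 63.6 in the perimacula, 286 ± 121 at the nasal site and 154 ± 29.97 in the periphery, and the eyes of neighbouring levels overlapped. In retina SULF2 was highest at the nasal site, at 65.3 ± 7.11 CPM against 46.5 ± 13.8 at the fovea/macula, and lower at the fovea/macula in 4 of 4 eyes. That log2 difference was -0.49 (standard error 0.09, adjusted p = 0.000306, edgeR), and without the monkey covariate it was not called (adjusted p = 0.0648). Against the perimacula it was -0.22 (standard error 0.09), which edgeR did not call (adjusted p = 0.0652) and DESeq2 did (adjusted p = 0.0489). In RPE/choroid the fovea/macula minus nasal difference was -0.32 (standard error 0.20, adjusted p = 0.483, edgeR), lower in 4 of 4 eyes.

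The balance of the 2 sulfatases, taken as the ratio of SULF1 to SULF2 counts within each library, had its highest median at the fovea/macula of RPE/choroid. Its median over the 4 eyes was 12.4 at the fovea/macula (range 5.28 to 20.7), 5.91 in the perimacula, 5.32 at the nasal site and 3.84 in the periphery (range 2.44 to 5.51). The fovea/macula eyes overlapped those of every other location, with highest ratios of 9.94 in the perimacula and 7.27 at the nasal site. The highest fovea/macula values came from RM04, whose SULF2 was low. In retina, the median ratio was 2.44 at the fovea/macula, 2.25 in the perimacula, 2.39 at the nasal site and 3.83 in the periphery, where the eyes ranged from 2.87 to 5.16.

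**Figure D2:**
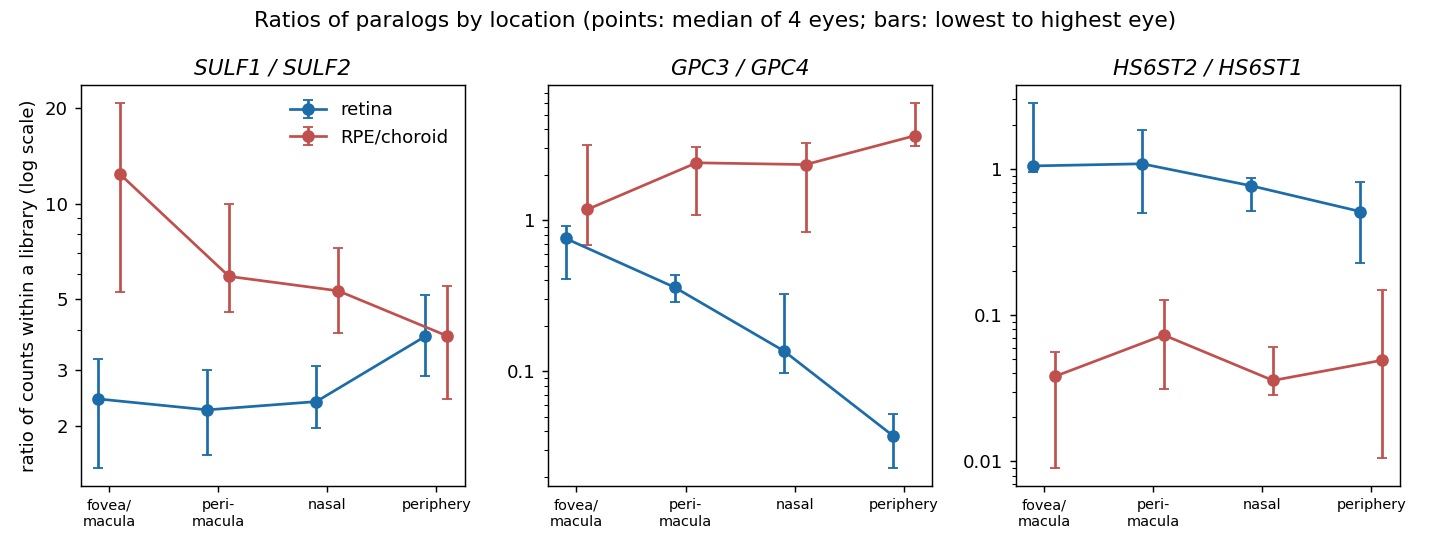
Ratios of the counts of 2 related genes within a library (log axis), as the median of 4 eyes with bars from the lowest to the highest eye, at each location of retina (blue) and RPE/choroid (red). SULF1 over SULF2 fell from 12.4 to 3.84 in RPE/choroid, GPC3 over GPC4 fell from 0.757 to 0.0374 in retina, and HS6ST2 over HS6ST1 was lower in RPE/choroid than in retina at every location.

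HS6ST2 (ENSMMUG00000004198), which adds 6-O-sulfate, was a gene of the retina with a steep gradient. At the fovea/macula the RM03 eyes had 30.1 and 29.7 CPM and the RM04 eyes 25.3 and 25.2 CPM. The perimacula held 12.05 to 18.7 CPM, the nasal site 12.2 to 13.02 and the periphery 5.24 to 9.21. All fovea/macula eyes lay above all other eyes and all peripheral eyes below, and the perimacula and nasal eyes overlapped. The log2 difference was 0.89 (standard error 0.18, adjusted p = 0.00238, edgeR) against the perimacula and 1.17 (standard error 0.16, adjusted p = 2.4e-05, edgeR) against the nasal site. Against the periphery it was 1.94 (standard error 0.18), or 3.83-fold. In RPE/choroid HS6ST2 had 0.109 to 2.98 CPM, that is 8 to 183 estimated counts in a library, with no order among the locations beyond the spread of the eyes. The highest RPE/choroid values were 2.06 and 2.98 CPM, in the RM03 eyes in the perimacula.

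HS6ST1 (ENSMMUG00000030412), which catalyses the same step, showed no location difference in retina that exceeded its spread. The retinal eyes scattered from 9.96 to 31.4 CPM, with 10.6 CPM in the right eye of RM03 and 24.7 to 27.5 CPM in the other 3 at the fovea/macula. Standard errors of its log2 differences in retina were 0.40 to 0.41, larger than those of the other 8 genes in retina. In RPE/choroid, its means were 18.8 ± 4.31 CPM (SD, n = 4 eyes) at the fovea/macula, 18.6 ± 3.53 in the perimacula, 18.1 ± 4.11 at the nasal site and 10.7 ± 3.63 in the periphery. The RPE/choroid difference between fovea/macula and periphery was 0.78 (standard error 0.25, higher in 3 of 4 eyes). The symbol of this entry is the one the study assigned, and the table of gene names used here lists HS6ST1 under another identifier.

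NDST1 (ENSMMUG00000005414), which starts chain sulfation by replacing acetyl groups on glucosamine with sulfate, was even across eyes at the retinal fovea/macula. The 4 fovea/macula eyes had 106, 109, 108 and 108 CPM. The perimacula held 157 to 220 CPM, with the lowest value in the left eye of RM04, the nasal site 213 to 232 and the periphery 199 to 248. All fovea/macula eyes lay below all other retinal eyes, and the other 3 locations overlapped. The log2 difference was -0.79 (standard error 0.09, adjusted p = 0.000127, edgeR) against the perimacula and -1.03 (standard error 0.08, adjusted p = 3.43e-07, edgeR) against the nasal site, or 2.04-fold. Against the periphery it was -0.98 (standard error 0.09). In RPE/choroid the 16 eyes and locations lay between 108 and 147 CPM, with log2 differences, fovea/macula minus the other location, of -0.04 for the perimacula, 0.16 for the nasal site and 0.09 for the periphery.

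HS3ST1 (ENSMMUG00000001341) makes the 3-O-sulfate that creates the antithrombin-binding site of heparan sulfate, and its mean fell outward in both tissues. In retina the RM03 eyes had 7.14 and 14.6 CPM and the RM04 eyes 12.8 and 12.3 CPM at the fovea/macula. The perimacula held 3.93 to 7.31 CPM, the nasal site 3.79 to 6.13 and the periphery 1.92 to 3.42. The fovea/macula overlapped the perimacula through the right eye of RM03, yet each eye was higher at its fovea/macula than at its perimacula. The log2 difference was 1.14 (standard error 0.25, adjusted p = 0.00437, edgeR) against the perimacula, not called without replicate 3 (adjusted p = 0.0569). It was 1.31 (standard error 0.25, adjusted p = 0.000525, edgeR) against the nasal site and 2.32 (standard error 0.26), or 5.01-fold, against the periphery.

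In RPE/choroid, HS3ST1 had 5.49 and 8.63 CPM in the RM03 eyes and 8.97 and 7.50 CPM in the RM04 eyes at the fovea/macula. The periphery held 1.71 to 2.62 CPM, below every other RPE/choroid eye. The log2 difference between these locations was 1.70 (standard error 0.26), or 3.26-fold. Against the nasal site it was 0.87 (standard error 0.25, higher in 4 of 4 eyes), which was not called with edgeR (adjusted p = 0.133) and was called with DESeq2 (adjusted p = 0.0276). Against the perimacula it was 0.44 (standard error 0.25, higher in 2 of 4 eyes).

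Markers of retinal cell types moved with these gradients. Summed over 7 ganglion cell markers, the retina held 7455 to 8473 CPM at the fovea/macula, 2111 to 4570.04 in the perimacula, 1482 to 1725 at the nasal site and 362 to 779.9 in the periphery, the same direction as HS6ST2 and HS3ST1. Summed over the 4 analysed Mueller glia markers, of 5 listed, it held 888 to 1017 CPM at the fovea/macula, 1381 to 1727 in the perimacula, 1986 to 2157 at the nasal site and 2777 to 3911 in the periphery. Rods, with 9 markers, rose outward as well, from 4013 to 4610.3 CPM at the fovea/macula to 23892 to 28042 in the periphery. The Mueller glia and rod sums moved in the direction of NDST1, SULF1 and GPC4. So did endothelial (262 to 316 CPM at the fovea/macula, 534 to 643 in the periphery) and RPE markers (237 to 333, 786 to 1356). Macrophage (13.3 to 16.3, 25.1 to 32.8) and astrocyte markers (11.7 to 17.4, 39.7 to 51.5) did as well. Cone markers (2138 to 2859, 1553 to 1649) moved in the direction of HS6ST2 and HS3ST1. Fibroblast, smooth muscle, Schwann cell and melanocyte sums overlapped between these locations. None of these markers was at 0 in all eyes of a retinal group, and the part of cell makeup in the results was not tested.

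**Figure D3:**
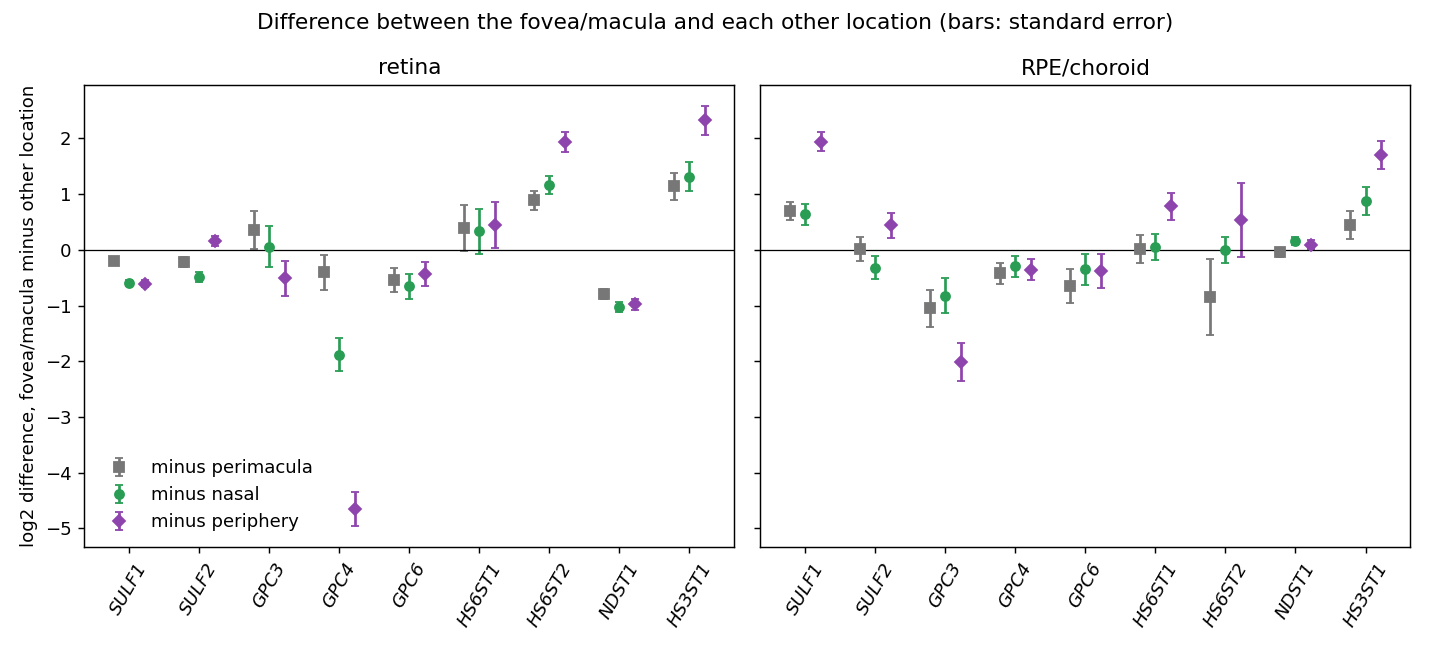
Fitted log2 difference between the fovea/macula and the perimacula (grey squares), the nasal site (green circles) and the periphery (purple diamonds) for each gene, with bars of 1 standard error, in retina (left) and RPE/choroid (right). GPC4 in retina reaches -4.66 against the periphery, and SULF1 lies below 0 in retina and above 0 in RPE/choroid against all 3 locations.

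Among the glypicans, GPC3 (ENSMMUG00000009622), a core protein known as a brake on Hedgehog signalling and as an overgrowth gene, was a gene of RPE/choroid. At the fovea/macula the RM03 eyes had 15.1 and 21.02 CPM and the RM04 eyes 40.2 and 29.1 CPM. The perimacula held 42.0 to 65.6 CPM and the nasal site 32.2 to 60.9. In the periphery the RM03 eyes had 83.0 and 172 CPM and the RM04 eyes 84.4 and 73.4 CPM, above all other eyes. The log2 difference between fovea/macula and periphery was -2.02 (standard error 0.34), or 4.04-fold. Each eye was lower at its fovea/macula than at its perimacula, at -1.05 (standard error 0.33), and than at its nasal site, at -0.82 (standard error 0.31). Neither difference was called (adjusted p = 0.298 and 0.232, edgeR), and the first was called with DESeq2 (adjusted p = 0.045). Fitted without the other locations, both were called (adjusted p = 0.0386 and 0.0195, edgeR).

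Fibroblast markers rose outward in RPE/choroid as GPC3 did. Summed over the 5 analysed markers, of 6 listed, they held 2803 to 3525 CPM at the fovea/macula, 2375 to 5301 in the perimacula, 3207 to 4519.8 at the nasal site and 4791 to 9487 in the periphery. None was at 0 in all eyes of a group, and their part in the GPC3 result was not tested. In retina GPC3 was near the limit of detection at every location, with 0.0958 to 0.378 CPM or 4 to 28 estimated counts in a library.

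GPC4 (ENSMMUG00000003456), a glypican known in the brain as an astrocyte-secreted inducer of synapses, had the largest gradient of the 9 genes and had it in retina. It held 0.246 and 0.191 CPM in the RM03 eyes and 0.28 and 0.530 CPM in the RM04 eyes at the fovea/macula, from 11 to 32 estimated counts. The perimacula held 0.335 to 0.606 CPM and the nasal site 0.841 to 1.68. The periphery held 7.30 and 10.8 CPM in the RM03 eyes and 7.30 and 7.07 CPM in the RM04 eyes. The nasal eyes lay above all perimacula and fovea/macula eyes, the peripheral eyes above all nasal eyes, and the fovea/macula and perimacula eyes overlapped. The log2 difference was -1.88 (standard error 0.29, adjusted p = 8.22e-05, edgeR) against the nasal site, or 3.69-fold, and -4.66 (standard error 0.31), or 25.2-fold, against the periphery. Against the perimacula it was -0.41 (standard error 0.32, adjusted p = 0.355, edgeR), lower in 3 of 4 eyes.

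GPC4 was also present in RPE/choroid, where the eyes held 12.9 to 38.7 CPM and all neighbouring locations overlapped. Its median in retina was 1.3% of that in RPE/choroid at the fovea/macula, 1.47% in the perimacula, 5.14% at the nasal site and 30.2% in the periphery. The corresponding shares of the RPE markers were 1.39%, 2.48%, 2.9% and 6.17%. In peripheral retina, SULF1 had 28.5%, GPC6 10.1%, GPC3 0.343% and the summed fibroblast markers 1.28% of their RPE/choroid medians. Whether RNA of RPE/choroid in the retina punches has a part in these values was not tested. Within retina libraries, the ratio of GPC3 to GPC4 counts fell from a median of 0.757 at the fovea/macula to 0.0374 in the periphery. In RPE/choroid it was 1.18 at the fovea/macula and 3.62 in the periphery.

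GPC6 (ENSMMUG00000000529), a glypican linked to skeletal growth, was low in retina, at 0.815 ± 0.11 CPM (SD, n = 4 eyes) at the fovea/macula, 1.24 ± 0.335 in the perimacula, 1.33 ± 0.409 at the nasal site and 1.14 ± 0.112 in the periphery. The difference between the fovea/macula and the nasal site was -0.65 (standard error 0.23, adjusted p = 0.0248, edgeR), lower in 4 of 4 eyes, and was not called without replicate 3 or 4 (adjusted p = 0.145 and 0.149). In RPE/choroid the eyes held 6.13 to 17.2 CPM and all neighbouring locations overlapped. In the annotation of another rhesus assembly, T2T-MMU8v2.0, GPC3 and GPC4 are next to each other on chromosome X with no protein-coding gene between them, and HS6ST2 lies on the same chromosome with 2 protein-coding genes between it and GPC4. In these libraries GPC3 and GPC4 were both higher in RPE/choroid than in retina, and HS6ST2 was higher in retina. Their gradients differed: GPC3 rose outward in RPE/choroid, GPC4 rose outward in retina, and HS6ST2 fell outward in retina.

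The 2 tissues were compared at each location, which asks which layer carries each gene. All 3 glypicans and both sulfatases were higher in RPE/choroid at all 4 locations and HS6ST2 was higher in retina at all 4. At the fovea/macula, 8 of the 9 genes were called, against 75.5% of all 16382 tested genes. In the perimacula, the nasal site and the periphery, 7 were called at each, against 76.7%, 76.2% and 75.7%. These shares of the background are large, so that the counts alone do not set these genes apart. The median absolute log2 difference of the 9 genes was 3.45 at the fovea/macula, 3.46 in the perimacula, 3.08 at the nasal site and 1.85 in the periphery, where it was 0.98, 1.02, 0.98 and 0.95 over all tested genes. The genes were chosen with expression differences in these data known, so nothing is read from these medians.

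SULF1 was 22.2-fold higher in RPE/choroid at the fovea/macula, a log2 difference of -4.47 (standard error 0.19, adjusted p = 1.9e-17, edgeR). This narrowed to 11.3-fold in the perimacula, 9.01-fold at the nasal site and 3.61-fold in the periphery, with a highest adjusted p of 2.02e-10 (edgeR). GPC3 was 130-fold higher in RPE/choroid at the fovea/macula and 364-fold in the periphery, on few retinal counts. GPC4 was 61.5-fold higher in RPE/choroid at the fovea/macula, 60.5-fold in the perimacula, 20.3-fold at the nasal site and 3.07-fold in the periphery. GPC6 was 8.48-fold to 11.2-fold and SULF2 3.62-fold to 4.82-fold higher in RPE/choroid over the 4 locations. HS6ST2 was 43.5-fold higher in retina at the fovea/macula and 11.02-fold to 17.5-fold at the other locations.

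NDST1 crossed over between the tissues. At the fovea/macula it was lower in retina than in RPE/choroid, at -0.25 (standard error 0.09, adjusted p = 0.0121, edgeR), in 4 of 4 eyes. It was higher in retina in the perimacula, at 0.56, the nasal site, at 0.98, and the periphery, at 0.89, each in 4 of 4 eyes and with a highest adjusted p of 2.06e-06 (edgeR). The fovea/macula call was lost without replicate 2, 3 or 4 (adjusted p = 0.104, 0.288 and 0.174) and with 2 lanes per library (adjusted p = 0.0922). HS3ST1 was called at the fovea/macula, 0.62 higher in retina (standard error 0.25, adjusted p = 0.0302, edgeR), and at no other location. HS6ST1 was called at no location.

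**Figure D4:**
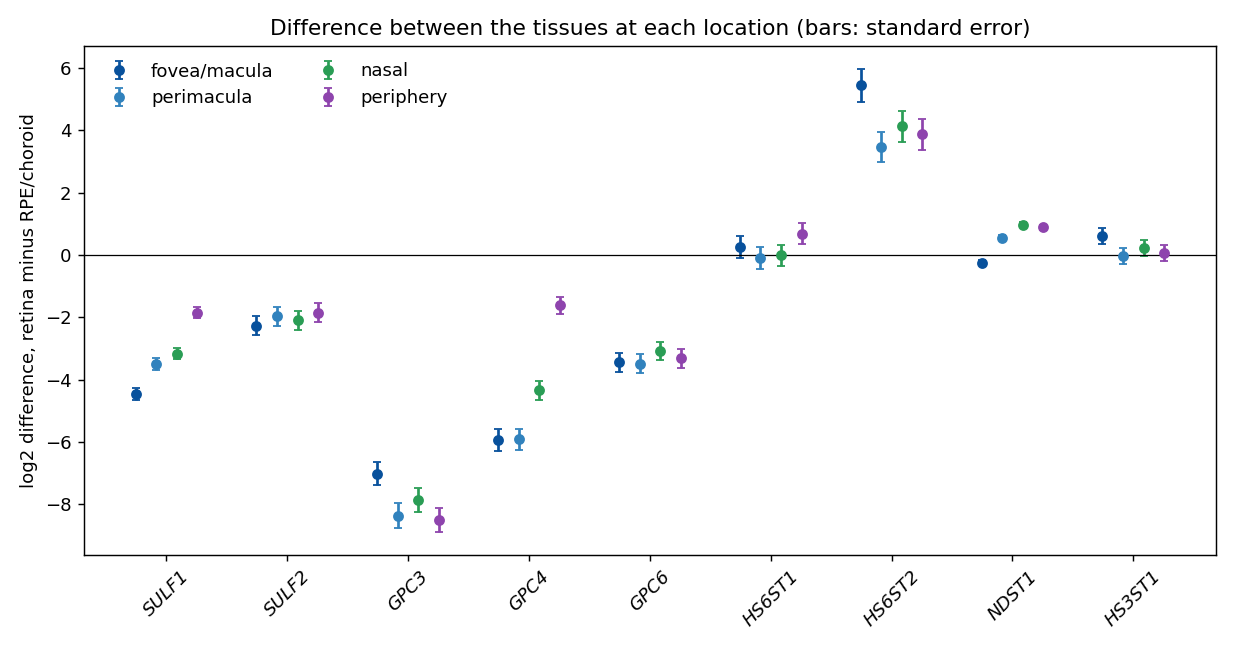
Fitted log2 difference between retina and RPE/choroid for each gene at the fovea/macula (dark blue), perimacula (light blue), nasal site (green) and periphery (purple), with bars of 1 standard error. SULF1 and GPC4 approach 0 toward the periphery, NDST1 lies below 0 at the fovea/macula and above it elsewhere, and HS6ST2 lies above 0 throughout.

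Whether a gene changed differently in the 2 tissues was tested as the interaction between both factors. For the change from the fovea/macula to the perimacula 3 of the 9 genes were called, against 15.2% of all tested genes, and for the change to the nasal site 3 were called, against 23.5%. SULF1 differed by -0.98 (standard error 0.23, adjusted p = 0.00528, edgeR) and -1.30 (standard error 0.23, adjusted p = 0.000195, edgeR), falling outward in RPE/choroid and rising in retina. Without replicate 3 the former was -0.73 and not called (adjusted p = 0.161). NDST1 differed by -0.81 (standard error 0.12, adjusted p = 9.31e-05, edgeR) and -1.22 (standard error 0.12, adjusted p = 1.9e-07, edgeR), a gradient of the retina that RPE/choroid did not share. GPC4 differed by -1.60 (standard error 0.42, adjusted p = 0.0069, edgeR) in the change to the nasal site. HS6ST2 differed by 1.98 (standard error 0.64, adjusted p = 0.0368, edgeR) in the change to the perimacula and was not called without replicate 1, 2 or 3 (adjusted p = 0.288, 0.122 and 0.0849). For the change to the periphery 4 of the 9 were called, against 43.5% of all tested genes, and the differences, given with no p, were -2.62 for SULF1, -4.32 for GPC4, -1.14 for NDST1 and 1.49 for GPC3.

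The rest of the pathway was followed in 6 lists with 59 genes, of which 46 had a single entry. In retina, 31 of 46 were called against the nasal site, 18 higher (25.1% of all tested genes) and 13 lower (27.2%) at the fovea/macula. Against the perimacula 23 of 46 were called, 13 higher (19% of all tested genes) and 10 lower (16.2%). In RPE/choroid, edgeR called none of the 45 tested in either comparison, beside 0.0447% of all tested genes against the perimacula and 0.361% against the nasal site. At an unadjusted p under 0.05, edgeR found 5 against the perimacula and 9 against the nasal site, where 10.7% and 15.5% of all tested genes were. DESeq2 called 0 and 2 of the 45, beside 2% and 3.3% of all genes it tested. Against the periphery, 33 of 46, or 71.7%, were called in retina, where 67% of all tested genes were, and 23 of 45, or 51.1%, in RPE/choroid, where 44.1% were.

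Of the enzymes that start and polymerize the chain, 10 were tested, and 4 were called in retina against the nasal site, a comparison that called 52.2% of all tested genes, 3 higher and 1 lower at the fovea/macula. EXT1 and EXT2 together form the polymerase. EXT1 was lower at the fovea/macula, at 18.7 ± 0.533 CPM (SD, n = 4 eyes) against 24.7 ± 2.96, a log2 difference of -0.36 (standard error 0.07). EXT2 was at 47.3 ± 2.31 against 45.7 ± 1.22 CPM and was not called (adjusted p = 0.167, edgeR). The median log2 difference of this list was 0.08, against -0.04 over all tested genes.

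The modifying enzymes divided in retina. Of 9 tested against the nasal site, 4 were called higher at the fovea/macula (25.1% of all tested genes) and 3 lower (27.2%). NDST4 and NDST3, paralogs of NDST1, ran opposite to it: NDST4 fell from 20.7 ± 2.85 CPM (SD, n = 4 eyes) at the fovea/macula to 4.31 ± 0.545 at the nasal site and 1.74 ± 0.569 in the periphery, and NDST3 from 12.7 ± 1.98 to 8.93 ± 0.786 and 4.85 ± 1.35. NDST2 was closer to NDST1, with 46.5 ± 2.5 CPM at the fovea/macula and 58.98 ± 1.02 in nasal punches. GLCE, the epimerase that turns glucuronic into iduronic acid, and HS2ST1, the 2-O-sulfotransferase, were lower at the fovea/macula than at the nasal site by log2 differences of -0.64 (standard error 0.09) and -0.89 (standard error 0.10). HS3ST6, a 3-O-sulfotransferase with 0.36 ± 0.213 CPM at the fovea/macula and 0.111 ± 0.098 in nasal punches, differed by 1.80 (standard error 0.39). In every comparison of the tissues, 8 of these 9 enzymes were called higher in retina, beside 37%, 37.7%, 37.6% and 37.8% of all tested genes from the fovea/macula outward to the periphery. NDST4 was the exception, lower in retina in the perimacula, the nasal site and the periphery and not called at the fovea/macula. There its RPE/choroid level was 4.97 and 6.51 CPM in the RM03 eyes and 39.0 and 29.9 in the RM04 eyes. Retina had 19.7 and 17.1 CPM in RM03 and 23.5 and 22.4 in RM04, so the animals differed in direction.

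The supply of the sulfate donor was followed with 4 genes, of which 2 were called higher (25.1% of all tested genes) and 1 lower (27.2%) at the fovea/macula of the retina than at the nasal site. PAPSS2, which makes the sulfate donor PAPS, was the lower one, with 2.08 ± 0.404 CPM (SD, n = 4 eyes) at the fovea/macula, 4.57 ± 0.619 at the nasal site and 12.5 ± 4.23 in the periphery. In RPE/choroid it held 56.97 to 62.7 CPM on average at the 4 locations.

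Other core proteins were mostly lower at the retinal fovea/macula, where 5 of 9 were called lower (27.2% of all tested genes) and 2 higher (25.1%) than at the nasal site, with a median log2 difference of -0.64 against -0.04 over all tested genes. SDC3, a syndecan of neural tissue, had 82.6 ± 3.75 CPM (SD, n = 4 eyes) at the fovea/macula, 236 ± 46.6 in the perimacula, 316 ± 23.4 at the nasal site and 301 ± 47.9 in the periphery. SDC4 rose from 5.25 ± 0.503 CPM at the fovea/macula to 13.3 ± 0.872 in nasal punches and 22.96 ± 1.87 in the periphery. SDC2 and the matrix proteoglycan perlecan (HSPG2) were lower by log2 differences of -0.55 (standard error 0.08) and -1.03 (standard error 0.21), and SDC1 was higher by 0.49 (standard error 0.16). Agrin (AGRN) at 0.58 and COL18A1 at -0.71 were not called (adjusted p = 0.074 and 0.076, edgeR). In RPE/choroid 5 of 9 core proteins were called higher (21.2% of all tested genes) and 1 lower (22.9%) at the fovea/macula than in the periphery, and SDC1 was the lower one, with 3.11 ± 0.84 against 7.73 ± 2.01 CPM.

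Of 12 listed genes of release and breakdown, 6 had a single entry and were tested. All 6 were called higher at the fovea/macula than in the periphery of the retina (31% of all tested genes), and 5 of the 6 were called higher against the nasal site (25.1%), with a median log2 difference of 0.88. They include GPLD1, which cleaves lipid anchors such as those of glypicans, at 1.30 (standard error 0.13), and the lysosomal enzymes HGSNAT at 1.00 (standard error 0.09) and NAGLU at 1.04 (standard error 0.16). GPLD1, HGSNAT and NAGLU were picked after their values were seen. HPSE, the heparanase that cuts the chain, had 0.326 ± 0.0948 CPM (SD, n = 4 eyes) at the fovea/macula and 0.314 ± 0.145 at the nasal site of the retina, and was not called. HPSE2, its inactive relative, was 0.77 higher (standard error 0.28) at the fovea/macula than at the nasal site in retina. In the right eye of RM04 it was lower, at 0.379 against 0.475 CPM. HPSE2 was low at both locations, with means of 0.517 and 0.327 CPM. In RPE/choroid it had 0.0537 and 0.29 CPM in the RM03 eyes and 5.05 and 2.59 in the RM04 eyes at the fovea/macula, and 3.34 and 3.69 against 8.40 and 6.93 in the periphery, a log2 difference of -2.80 (standard error 0.75). RM03 lay below RM04 at both locations.

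Of 8 heparan sulfate-binding growth factors and FGF receptors, 2 were called higher (25.1% of all tested genes) and 3 lower (27.2%) at the retinal fovea/macula than at the nasal site. FGF9, a growth factor that needs heparan sulfate to signal, fell from 60.99 ± 5.77 CPM (SD, n = 4 eyes) at the fovea/macula to 24.2 ± 7.03 in the perimacula, 14.2 ± 0.558 at the nasal site and 7.40 ± 1.76 in the periphery. FGF1 was 1.31 higher at the fovea/macula than at the nasal site (standard error 0.16). The receptors FGFR1 and FGFR3 ran the opposite way in retina, at -1.41 (standard error 0.21) and -2.19 (standard error 0.33). In RPE/choroid both receptors were higher at the fovea/macula than in the periphery, FGFR1 at 0.73 (standard error 0.13) and FGFR3 at 1.46 (standard error 0.23), while FGF1 was lower, at -1.94 (standard error 0.68). FGF1 had 4.37 to 8.44 CPM at the fovea/macula of RPE/choroid and, in the periphery, 25.7 and 45.2 CPM in the RM03 eyes and 8.54 and 24.1 in the RM04 eyes. Summed over 5 Schwann cell markers, the same libraries had 256 to 328 CPM at the fovea/macula and, in the periphery, 4386 and 12558 CPM in the RM03 eyes and 568 and 1048 in the RM04 eyes. In the perimacula FGF1 was 29.2 CPM in the right eye of RM03, where the Schwann cell sum was 8012, and 3.18 to 10.9 CPM in the other eyes, where it was 295 to 2138. None of these markers was at 0 in all eyes of a group, and their part in the FGF1 difference was not tested.

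**Figure D5:**
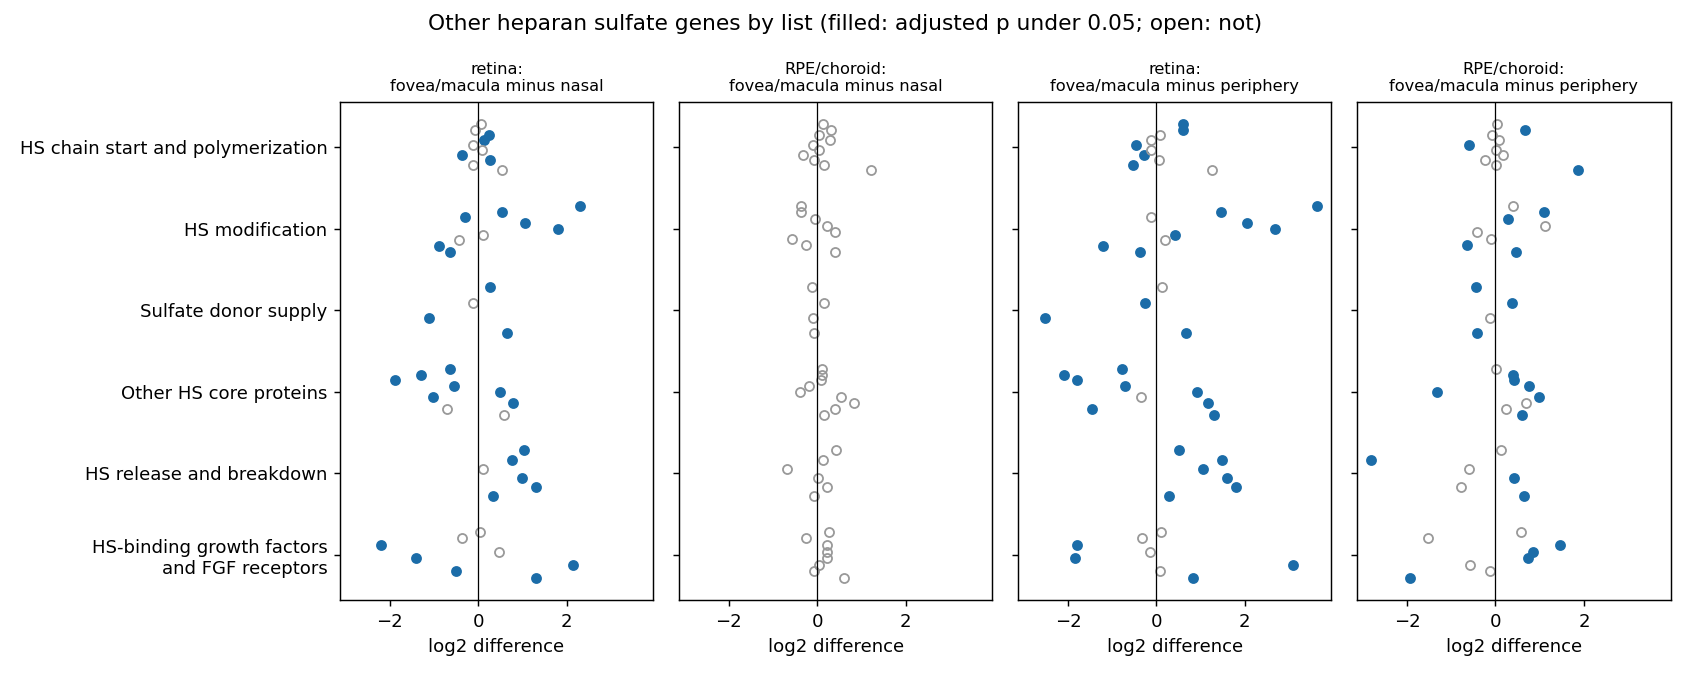
Log2 difference between the fovea/macula and the nasal site, and between fovea/macula and periphery, in each tissue, with a point for each of the other pathway genes in 6 lists, filled where the adjusted p was under 0.05. In retina the release and breakdown genes lie at or above 0 and most other core proteins below it, and in RPE/choroid no point is filled against the nasal site.

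For each of the 9 genes, the 3 genes with the most similar log2 CPM over the 16 libraries of the tissue where it was higher were listed, among genes with a mean of at least 1 CPM. These correlations describe libraries that share eyes and flow cells, and carry no test. NDST1 was closest to SDC3 (Pearson r = 0.992), PPARA (0.991) and CLMN (0.99) among 13515 genes in retina. HS6ST2 was closest to SLC4A3 (0.996), SPOCK2 (0.994) and GLRB (0.993), where SPOCK2 encodes a heparan sulfate proteoglycan, and HS3ST1 to NDEL1 (0.987), PACSIN1 (0.983) and RAD21L1 (0.979). HS6ST1, with its scattered levels, was closest to EXOSC6 (0.976), B3GALT6 (0.976) and FKBP1A (0.974). B3GALT6 adds a sugar of the linker on which the chain is built, and like HS6ST1 it was low in the right eye of RM03 at the retinal fovea/macula, at 0.0615 CPM against 2.55 to 3.15 CPM, and high in the left eye of RM04 in the peripheral retina, at 4.46 CPM against 0.102 to 0.214 CPM.

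In RPE/choroid, among 13839 genes, SULF1 was closest to TMEM184B (0.974), APP (0.964) and ABHD2 (0.963), where APP encodes a precursor protein that itself binds heparan sulfate. SULF2 was closest to LAMP1 (0.95), DAB2 (0.945) and SEPT11 (0.943), and GPC3 to CRYBG3 (0.94), ZNF300 (0.927) and MOXD1 (0.923). GPC4 was closest to SVEP1 (0.915), MANBA (0.901) and TRIM68 (0.901). GPC6 had the lowest values, 0.826 for FBN1, which encodes a microfibril protein of the matrix, 0.817 for FAM210A and 0.798 for LRRC75A.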

How the data were processed

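Total RNA of 32 libraries was sequenced by the authors after poly-A selection. Salmon 0.13 quantified each lane against Mmul_8.0.1 transcripts, and tximport turned transcript values into length-scaled gene values, so the deposited values are estimated counts per gene, not divided by lane totals. Such values depend on the annotation and on reads shared between paralogs. The values of 136 lanes were summed per library (lane sums 7932259 to 39439054) and rounded.

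Differences came from quasi-likelihood fits in edgeR 4.0.16 (R 4.3.3) after TMM scaling and filterByExpr (minimum count 10). The animal was a covariate, p-values were adjusted by Benjamini-Hochberg across every gene tested, and the fit was tested on simulated data. A tissue was fitted over its fovea/macula, perimacula and periphery libraries, the nasal comparison used all 4 locations, and tissue comparisons and interactions used all 32 libraries. CPM used TMM factors. Counting error is small at these depths except for genes with few counts. The labels name the animal and eye of each library. Over 1000 genes, the deviations of libraries from their group means correlated at 0.561 within an eye, 0.555 between fellow eyes and -0.559 between animals in retina, and at 0.387, 0.403 and -0.395 in RPE/choroid, so fellow eyes deviated together as much as libraries of an eye did, and the pairing seen is that of the animal. No pair of libraries agreed within counting noise.

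The genes and lists were chosen with earlier results of these data known. Named pathway genes were 13 fixed genes and the 3 largest called differences in each direction in 3 comparisons. DESeq2 1.42.0, RLE, other filters, the eye as a block, no covariate, other sets of libraries, 2 lanes per library, plain totals and leaving out each eye were tried as alternatives. No sequences were used here.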

Additional observations from a re-analysis of the deposited data

Results flagged for a closer look

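Some groups of 4 eyes had a value set apart from the other 3 by Dixon's criterion. Among 72 groups, 5 met it, and chance alone gives about 1 in 20 groups. GPC3 in the periphery of RPE/choroid reached 172 CPM in the left eye of RM03, against 73.4 to 84.4 CPM in the other eyes. GPC4 in the periphery of the retina reached 10.8 CPM in the same eye, against 7.07 to 7.30 CPM. GPC6 at the nasal site of RPE/choroid was 17.05 CPM in that eye as well, against 9.17 to 10.48 CPM. HS6ST1 was low in the right eye of RM03 at the retinal fovea/macula, at 10.6 CPM, and high in the left eye of RM04 at the retinal periphery, at 31.4 CPM.

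In 6 cases the change with location differed between the tissues by the interaction test, as the difference of log2 differences, retina minus RPE/choroid. For the change between the fovea/macula and the perimacula these were SULF1 at -0.98, HS6ST2 at 1.98 and NDST1 at -0.81. For the nasal site they were SULF1 at -1.30, GPC4 at -1.60 and NDST1 at -1.22. For the periphery, where the flow cell differed and the genes were chosen with results known, the differences are a description: SULF1 had -2.62, GPC3 1.49, GPC4 -4.32 and NDST1 -1.14.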

How the results depend on the processing

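Of 157 counts of called genes under the alternatives, 151 stayed within 1.5 times the value reported. In RPE/choroid, no gene of the 9 was called at the fovea/macula against the perimacula or the nasal site, but DESeq2 called 2 in each, SULF1 and GPC3 in the former and SULF1 and HS3ST1 in the latter, and fitting the compared libraries alone called 1, GPC3, and 2, GPC3 and HS3ST1. Leaving out an eye moved the count from 4 to between 2 and 4 for retina against the perimacula and from 3 to between 1 and 3 for the interaction with the perimacula, the lowest both without replicate 3. With the eye as a replicate block, retina against the perimacula gave 3 genes, as SULF1 was lost, and no other call among the 9 genes changed. No direction reversed among called differences. For single genes, 770 values kept their side of the threshold, 24 lost a call and 15 gained one, and the causes were not tested. HS6ST1 in RPE/choroid against the periphery lost its call without replicate 1, 2 or 4. The periphery shares no flow cell with other locations, so a comparison within a flow cell could not be made, and 2 animals limit what any p can show. By Spearman rho, none of the 3 genes most like GPC4, HS6ST2 or NDST1 was retained.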
